A study of Mus musculus with 4 samples.

Results

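The 38 genes described here encode the machinery of autophagy and the lysosome in mouse liver. They were listed by symbol and found through array probes assigned to a RefSeq transcript of a listed gene. They are 38 of the 23462 gene symbols that could be given to a probe, and they are carried by 59 probes. By role, 12 act in initiation and phagophore growth, 12 in conjugation of ATG8-family proteins, 5 are cargo receptors, and 9 are lysosomal proteins or their transcriptional regulators. RNA from whole livers of male mice was hybridized to 4 Agilent arrays in 1 colour, with 1 array for each group. The combination group was aged mice with type 2 diabetes given astragalus polysaccharide together with metformin, and the metformin group was aged diabetic mice given metformin alone. The diabetic group was aged diabetic mice with no drug named, and the control group was naturally aged mice without diabetes, so all 4 groups were aged. Metformin, a biguanide, is a first-line drug for type 2 diabetes, and astragalus polysaccharide is extracted from the root of Astragalus, a plant of Chinese medicine. The sources used here do not give strain, age, doses, the way diabetes was induced, the number of mice behind an array or the event from which the labelled 60 days count.

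In autophagy, the ULK1 kinase complex and the Beclin 1 lipid kinase complex start a cup-shaped membrane, the phagophore, which ATG9 vesicles and ATG2 lipid transfer proteins enlarge. Ubiquitin-like conjugation systems then attach LC3 and GABARAP proteins to that membrane, receptors tie cargo to them, and the closed autophagosome fuses with a lysosome, whose cathepsins and acid lipase digest the load. In liver the process is induced by fasting, removes damaged mitochondria and stored lipid, and is restrained by mTORC1, which also holds the transcription factors TFEB and TFE3 out of the nucleus.

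The arrays correlated at 0.950 to 0.965 over the 24363 probes above background on all 4. A level below is the log2 processed signal relative to the 75th percentile of its array, centred so that the median gene lies at its own mean on every array. A difference is the log2 difference of 2 arrays after the median of all measured genes is taken off, which was -0.11 for diabetic minus control, -0.11 for metformin minus diabetic, 0.040 for combination minus diabetic, 0.10 for combination minus metformin, -0.19 for metformin minus control and -0.073 for combination minus control. Repeated spots of 1 probe gave a technical SD of 0.089 to 0.098 for a difference, and the SD between different probes of a gene had medians of 0.19 to 0.24. Both leave out the spread between mice. With no replicate there was no test and no p-value, each difference is one between single arrays, and a 1.5-fold difference, 0.585 in log2, stands in for a call. The split of all genes past that fold depended on the scaling. Genes lower on the metformin than on the control array made up 33.8% of them after centring, 57.7% without centring and 47.0% in the authors' value table. For combination minus metformin these shares were 70.1%, 58.3% and 59.7%.

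Of the 38 genes, 34 had a probe above background on all 4 arrays. Atg13 and Gabarap had no value on the diabetic array, Becn1 had none on the metformin array and Atg3 had one only on the combination array, because the scanner software had marked their spots there as outliers. The members differed less between arrays than the typical gene: their median absolute difference was 0.23 against 0.32 over all genes for diabetic minus control, 0.24 against 0.30 for metformin minus diabetic, 0.20 against 0.29 for combination minus diabetic and 0.22 against 0.34 for combination minus metformin. These medians are not matched for brightness. For diabetic minus control, 4 of 35 members had a mean level below 0 before centring, against 5413 of 13475 genes. Other gene lists of the pathway also had small values there, such as 0.18 for further hydrolases and 0.16 for V-ATPase subunits, but further receptors had 0.36.

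The comparison of diabetic with control liver asks how autophagy genes differ when diabetes is added to ageing. Map1lc3a and Atg10 were at least 1.5-fold higher on the diabetic array, and Ulk2 and Tfe3 were at least 1.5-fold lower. These were 2 of 35 measured members higher, against 16.3% of 13475 measured genes, and 2 lower, against 11.2%. No member was past 2-fold, where 7.45% of genes were higher and 4.53% lower. The members' median difference was -0.017, with 17 above 0 and 18 below, while the median gene lies at 0 by construction. By role the median was 0.25 for conjugation genes, with 8 of 10 above 0, and -0.17 for lysosomal genes, with 7 of 9 below 0. These medians depended on the processing: the first was 0.061 with outlier spots kept, and the second was 0.0001 with quantile normalization.

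Metformin against untreated diabetic liver asks what the drug changes. On the metformin array 29 of 34 measured members were lower than on the diabetic array, and their median was -0.22. None was at least 1.5-fold higher, where 18.7% of 13900 genes were and 10.4% were past 2-fold. Atg9a, Atg10, Map1lc3a and Atg5 were at least 1.5-fold lower, 4 of 34 where 8.45% of genes were, and Atg9a alone was past 2-fold lower, where 2.68% of genes were. All 10 measured conjugation genes were lower, with a median of -0.29, and 9 of 10 initiation genes were lower, with a median of -0.28.

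The combination against untreated diabetic liver gave no common displacement: the members' median was -0.023, with 16 above 0 and 19 below. Atg10, Map1lc3a, Atg4b and Atg5, all of the conjugation group, were at least 1.5-fold lower, 4 of 35 where 14.2% of 14108 genes were. Atg2b was at least 1.5-fold higher, 1 of 35 where 10.7% of genes were. None was past 2-fold, where 3.51% of genes were higher and 6.31% lower. Conjugation genes had a median of -0.30 with 7 of 10 below 0, and the 5 cargo receptors had a median of 0.15, between 0.042 and 0.25 over the alternatives. All 5 receptor means were above 0, but the probes of Nbr1 and of Sqstm1 had opposite signs.

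Combination against metformin liver asks what astragalus polysaccharide adds to the drug. On the combination array 28 of 36 measured members were higher than on the metformin array, with a median of 0.19. Atg9a, Atg2b, Optn and Atg2a were at least 1.5-fold higher, 4 of 36 where 8.18% of 14363 genes were, and none was at least 1.5-fold lower, where 19.2% of genes were. None was past 2-fold, where 1.8% of genes were higher and 10.2% lower. Initiation genes had a median of 0.22 with 10 of 11 above 0, and 0.34 with quantile normalization. The median was 0.057 for conjugation genes, with 7 of 11 above 0, and 0.105 for lysosomal genes, with 6 of 9 above 0. These 2 medians were -0.0091 and -0.103 in the authors' value table. Receptors had a median of 0.36, and 0.17 in the authors' value table; 4 of 5 were above 0 on every probe measured, and the probes of Nbr1 had opposite signs. The comparisons share arrays: the diabetic array enters the comparisons with control, metformin and combination, so these are not independent of each other, and a deviation of 1 array appears in each comparison it enters.

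**Figure D1:**
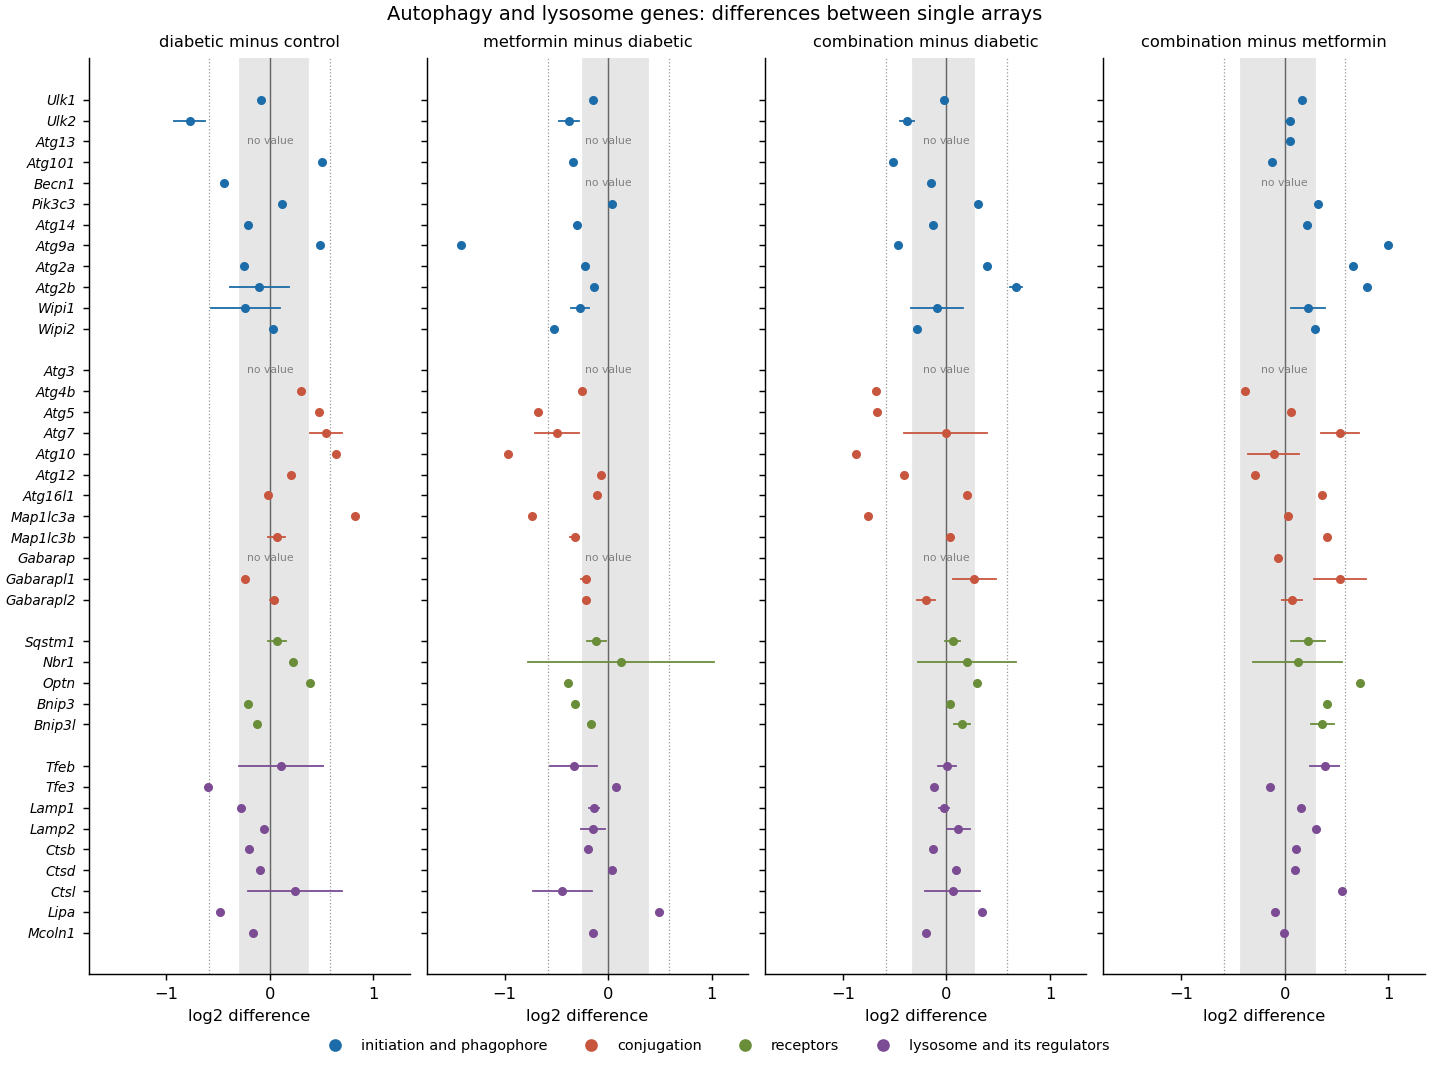
Log2 difference of each of the 38 genes in 4 comparisons of single arrays, coloured by role; points are means over a gene's probes, lines span its probes, the grey band holds the middle 50% of all measured genes and dotted lines mark 1.5-fold. Conjugation genes lie mostly to the right in diabetic minus control and all to the left in metformin minus diabetic, and the receptors' means lie to the right in combination minus metformin, with probes of Nbr1 on both sides of 0.

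Against control liver, Ulk2 had the lowest difference of all members on both treated arrays. After centring, members past 1.5-fold lower were no more frequent than among all genes. Without centring they were more frequent for metformin minus control, with the counts given in the last section. On the metformin array 29 of 36 measured members were below their control value, and the median was -0.25. None was at least 1.5-fold higher, where 21.2% of 13506 genes were, and Ulk2 and Atg9a, 2 of 36, were at least 1.5-fold lower, where 10.8% of genes were. Ulk2 was past 2-fold lower, where 3.57% of genes were. On the combination array 22 of 37 members were below their control value, and the median was -0.12. Ulk2, Tfe3 and Becn1, 3 of 37, were at least 1.5-fold lower, where 12.4% of 13845 genes were, and Optn, 1 of 37, was higher, where 13.9% of genes were. Ulk2 was past 2-fold lower there too, where 5.09% of genes were, and none was past 2-fold higher, where 5.61% were.

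Among initiation genes, Ulk2 was lower in each of the 3 diabetic livers than in control liver. Ulk2 encodes a kinase close to ULK1. On its brighter probe the levels were 1.72 on the combination, 1.67 on the metformin, 2.16 on the diabetic and 2.79 on the control array, and on its dimmer probe -0.11, -0.10, 0.20 and 1.13 in the same order. Both probes put the control array highest and both treated arrays below the diabetic one. The difference was -0.77 for diabetic minus control (1.71-fold lower), -1.18 for metformin minus control (2.27-fold lower) and -1.15 for combination minus control (2.22-fold lower). Ulk1, which encodes the kinase at the head of the pathway, had levels of 3.57, 3.43, 3.59 and 3.69 on the combination, metformin, diabetic and control arrays. All its differences between 2 arrays lay between -0.26 and 0.17, within 1.5-fold, while its relative Ulk2 spanned 1.17 in log2.

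Becn1 encodes Beclin 1, the scaffold of the lipid kinase complex. Its level was 0.79 on the combination, 0.94 on the diabetic and 1.39 on the control array, so both diabetic livers with a value were below control. The difference was -0.45 for diabetic minus control and -0.60 for combination minus control, and the second was within 1.5-fold without the background filter and with another background correction. With outlier spots kept, the metformin array gave -0.66 against control. Pik3c3, the lipid kinase itself, had levels from 0.053 on the control to 0.47 on the combination array, and Atg14, the subunit that takes the complex to autophagy sites, from 1.81 on the metformin to 2.34 on the control array.

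Atg9a encodes the membrane protein of the vesicles that seed the phagophore. Its single probe is dim, with levels of -1.78 on the combination, -2.75 on the metformin, -1.32 on the diabetic and -1.80 on the control array. The metformin array was the lowest, and the combination and control arrays were level with each other. The difference was -1.42 for metformin minus diabetic (2.67-fold lower), -0.97 for metformin minus control and 1.0, just under 2-fold, for combination minus metformin. All of them stayed past 1.5-fold in every alternative, between -1.71 and -1.03 for the first of them.

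The lipid transfer proteins ATG2A and ATG2B bring lipid to the growing membrane, and both genes were highest in combination liver. Atg2a had levels of 2.56 on the combination, 1.92 on the metformin, 2.16 on the diabetic and 2.43 on the control array. Atg2b had levels of 0.029, -0.74, -0.59 and -0.76 in the same order on its 1 probe above background on all 4 arrays, where the combination array stood apart from the other 3. A second Atg2b probe gave 0.083 on the combination, -0.65 on the diabetic and -0.25 on the control array, with no value on the metformin array. The 2 probes had opposite signs for diabetic minus control. Combination minus metformin was 0.66 for Atg2a (1.58-fold higher) and 0.80 for Atg2b (1.74-fold higher), and combination minus diabetic was 0.39 for Atg2a and 0.67 for Atg2b. Without the background filter the Atg2b values were 0.21 and 0.46, within 1.5-fold. Atg101, a subunit of the ULK1 complex, was highest on the diabetic array at 3.88, against 3.37 to 3.52 on the other 3. The lipid-binding proteins WIPI1 and WIPI2, which read the lipid that the Beclin 1 complex makes, differed by less than 1.5-fold in all 6 comparisons.

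Conjugation genes were 3 of the 4 members at least 1.5-fold lower in metformin than in diabetic liver, and all 4 of those lower in combination than in diabetic liver. They made up 10 of 34 and 10 of 35 measured members, and 8.45% and 14.2% of all genes were that much lower. Atg10, Map1lc3a and Atg5 count in both comparisons, which share the single diabetic array and so are not 2 separate observations. Map1lc3a encodes LC3A, an ATG8-family protein that is attached to the autophagosome membrane. Its level was 2.71 on the combination, 2.71 on the metformin, 3.46 on the diabetic and 2.65 on the control array. The diabetic array stood alone, and the other 3 lay between 2.65 and 2.71. The difference was 0.82 for diabetic minus control (1.77-fold higher), -0.74 for metformin minus diabetic (1.67-fold lower) and -0.76 for combination minus diabetic (1.69-fold lower). Every one of these kept its direction and stayed past 1.5-fold in all 9 alternatives. Map1lc3a has a single probe with 1 spot on each array, so the alternatives process the same spots again and add no measurement.

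Atg10 and Atg5 were likewise highest on the diabetic array. Atg10 encodes the E2-like enzyme that joins ATG12 to ATG5, and its level was 0.78 on the combination, 0.67 on the metformin, 1.65 on the diabetic and 1.02 on the control array. Atg5 encodes the acceptor of ATG12, and its level was 2.54, 2.51, 3.21 and 2.75 in the same order. For both genes, on the probe above background on all 4 arrays, the treated arrays lay close together and below control. A second Atg10 probe was at -0.65 on the combination and -0.27 on the metformin array, with no value on the diabetic and control arrays. The Atg10 probes had opposite signs for combination minus metformin, and the Atg10 differences from the diabetic array rest on 1 probe. Atg10 was 1.95-fold lower for metformin against diabetic (-0.97) and 1.84-fold lower for combination against diabetic (-0.88). Atg5 was 1.60-fold lower for metformin against diabetic (-0.68) and 1.59-fold lower for combination against diabetic (-0.67). Diabetic minus control was 0.64 for Atg10, which passed 1.5-fold in 4 of 9 alternatives, and 0.47 for Atg5. The Atg5 value for metformin minus diabetic was -0.58 with another background correction, within 1.5-fold.

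Atg7 encodes the E1-like enzyme that activates both ATG12 and the ATG8 proteins, and its level was 1.62 on the combination, 1.11 on the metformin, 1.62 on the diabetic and 1.08 on the control array. These means join probes that disagree: on the brighter probe the combination array was at 2.13, against 2.53 on the diabetic and 2.15 on the control array, and on the dimmer at 1.1, against 0.70 and 0.016. The difference was 0.54 for diabetic minus control, -0.49 for metformin minus diabetic and 0.53 for combination minus metformin, all within 1.5-fold, and its probes had opposite signs for combination minus diabetic and for both treated arrays minus control. Atg4b, the protease that trims ATG8 proteins for conjugation, had levels of 0.71 on the combination, 1.12 on the metformin, 1.39 on the diabetic and 1.09 on the control array. Combination minus diabetic was -0.68 for Atg4b (1.60-fold lower) and as little as -0.36 in an alternative, with outlier spots kept or the background filter dropped ending the call. Atg12 lay between 3.73 on the combination and 4.14 on the diabetic array, and Atg16l1, which places the conjugate on the membrane, from 2.34 on the metformin array up to 2.67 with the combination.

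Map1lc3b encodes LC3B, the ATG8 protein that is most often used as an autophagosome marker, and it did not follow Map1lc3a. Its level was 4.33 on the combination, 3.95 on the metformin, 4.29 on the diabetic and 4.24 on the control array. The metformin array was the low one, and diabetic minus control was 0.065, against 0.82 for Map1lc3a. Gabarapl1 was also low on the metformin array, at 3.95 against 4.18 to 4.46 on the others, with 0.53 for combination minus metformin. Map1lc3b and Gabarapl1 are bright, and 72.6% of all genes at level 4 or more were lowest on the metformin array. Gabarapl2 spanned 0.23 over the 4 arrays, a smaller span than that of all but 6.88% of genes.

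**Figure D2:**
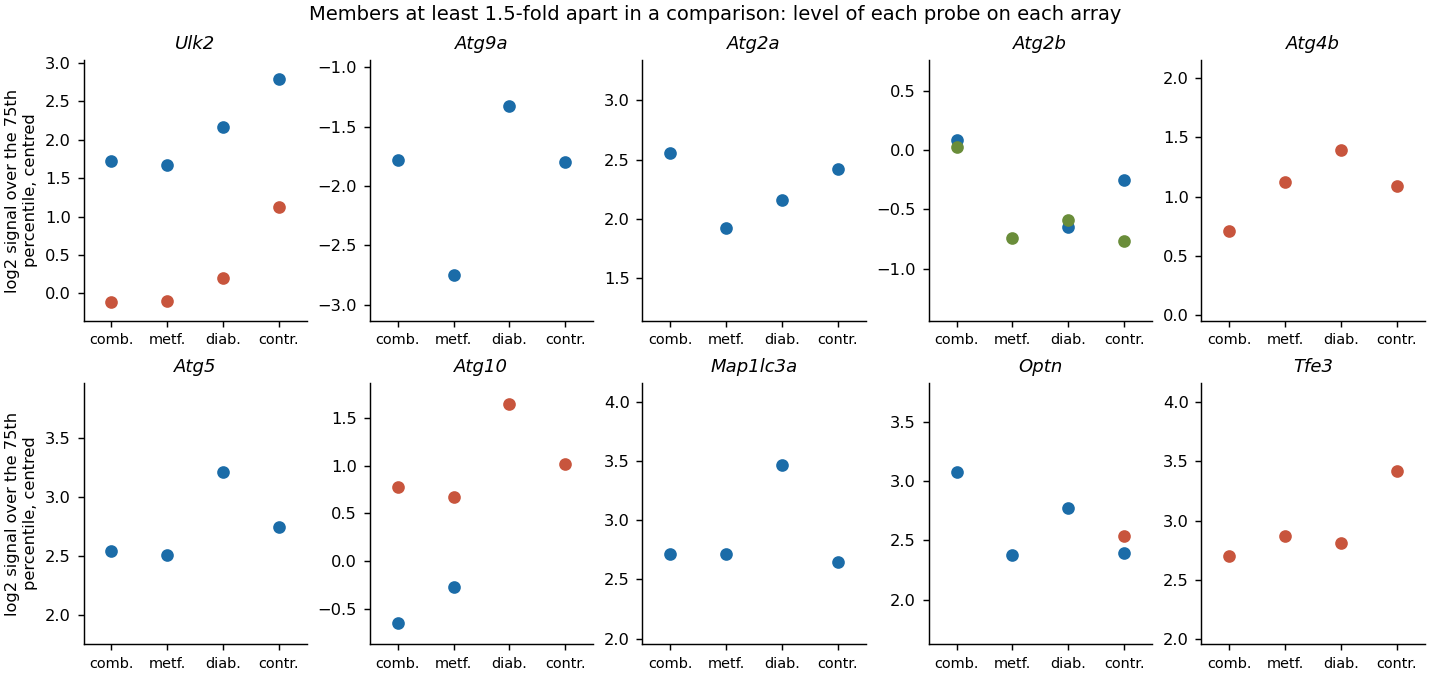
Centred log2 level over the 75th percentile for the 10 members at least 1.5-fold apart in a main comparison, on the combination, metformin, diabetic and control arrays from left to right; each point is 1 probe above background on 1 array, colours tell a gene's probes apart, and each panel has its own axis. Map1lc3a, Atg10 and Atg5 peak on the diabetic array, Ulk2 and Tfe3 on the control array, and Atg2a, Atg2b and Optn on the combination array.

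Of the 5 cargo receptors, 4 were higher in combination than in metformin liver on every probe measured, and Nbr1 had probes of opposite sign. Sqstm1 encodes p62, which binds ubiquitinated cargo and is itself degraded by autophagy. Its level was 4.46 on the combination, 4.26 on the metformin, 4.40 on the diabetic and 4.33 on the control array, a span of 0.20. Optn encodes optineurin, a receptor for bacteria and damaged mitochondria, and its level was 3.08, 2.37, 2.77 and 2.39 in the same order. The metformin and control arrays were level for Optn and the combination array was the highest. Combination minus metformin was 0.73 for Optn (1.66-fold higher), combination minus control was 0.68 (1.60-fold higher), and with outlier spots kept these were 0.42 and 0.50, within 1.5-fold. The mitophagy receptors Bnip3 and Bnip3l were lowest on the metformin array, with combination minus metformin at 0.40 for Bnip3 and 0.36 for Bnip3l. Both are bright, and 72.6% of all genes at level 4 or more were lowest on that array. Nbr1, a receptor related to p62, is on 2 probes that had opposite signs in all 3 comparisons between diabetic, metformin and combination livers, so no direction is given for it.

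Of the lysosomal genes and their regulators, Tfe3 set the control array apart. Tfe3 and Tfeb encode related factors that switch on lysosomal genes. Tfe3 had levels of 2.70 on the combination, 2.87 on the metformin, 2.81 on the diabetic and 3.42 on the control array, so all 3 diabetic livers were below control. The difference was -0.60 for diabetic minus control (1.52-fold lower), -0.56 for metformin minus control and -0.72 for combination minus control (1.65-fold lower). The first passed 1.5-fold in 5 of 9 alternatives and was as small as -0.30 in one of them, and the last was -0.37 without the background filter. Tfeb was dim, with levels of -1.63, -1.99, -1.64 and -1.74 in the same order of arrays. Its probes had opposite signs for diabetic minus control, and metformin minus diabetic was -0.33.

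Genes of the lysosomal proteins themselves differed by less than 1.5-fold in all 6 comparisons. Lamp1, an abundant lysosomal membrane glycoprotein, had levels of 4.85 on the combination, 4.71 on the metformin, 4.86 on the diabetic and 5.15 on the control array. Ctsd, the aspartic protease cathepsin D, had levels of 5.01, 4.94, 4.91 and 5.01 in the same order. Lamp1 was highest in control liver, by 0.28 over diabetic liver, while the span of Ctsd was 0.10, which 0.61% of all genes fell below. Lipa, the acid lipase that digests lipoprotein and droplet lipid, was lowest on the diabetic array, as was Ctsd, at 3.41 against 3.76 on the combination, 3.89 on the metformin and 3.90 on the control array. Metformin minus diabetic was 0.49 and diabetic minus control -0.48 for Lipa, both within 1.5-fold. Ctsb ran from 4.26 on the metformin to 4.68 on the control array, and Mcoln1, the lysosomal calcium channel, from 3.34 on the combination to 3.71 on the control array. The probes of Ctsl had opposite signs for diabetic minus control and for combination minus diabetic.

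TFEB and TFE3 bind the CLEAR element, whose core is CACGTG, a palindrome that reads alike on both strands. Promoters of 250 bases before to 50 bases after the start were taken from RefSeq (GRCm38.p6), where 31 of the 38 genes matched an entry. CACGTG occurred in 9 of the 31 (29.0%), namely Atg14, Atg3, Atg5, Atg7, Bnip3, Lamp1, Ctsd, Ctsl and Mcoln1, against 8.09% of 27025 genes with a promoter entry. The longer TCACGTG, searched on both strands and always overlapping a CACGTG, occurred in 6 of the 31 (19.4%), against 4.29% of all. A match describes these letters only and was not tested as a binding site. The stretches below, from 3 lysosomal genes and from the E1-like enzyme gene, show how densely the motif stands in Lamp1 and in a conjugation gene with a single copy. Capitals mark CACGTG, and each is written 5′ to 3′ on the strand of its gene: Lamp1 at chr8:13159091-13159160 (plus strand), Mcoln1 at chr8:3500434-3500503 (plus strand), Ctsd at chr7:142387888-142387957 (minus strand) and Atg7 at chr6:114670931-114671000 (plus strand).
Lamp1: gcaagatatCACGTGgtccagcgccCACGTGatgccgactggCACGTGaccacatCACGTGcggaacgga
Mcoln1: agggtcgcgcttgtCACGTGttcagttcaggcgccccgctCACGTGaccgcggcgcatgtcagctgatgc
Ctsd: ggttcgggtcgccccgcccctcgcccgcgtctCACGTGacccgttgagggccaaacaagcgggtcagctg
Atg7: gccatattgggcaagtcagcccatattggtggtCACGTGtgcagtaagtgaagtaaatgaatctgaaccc
Among these 4 genes, all with the motif, diabetic minus control was -0.28 for Lamp1, -0.17 for Mcoln1, -0.095 for Ctsd, within the technical SD of 0.096, and 0.54 for Atg7. Of the other genes with the motif, Atg14 and Bnip3 were at -0.21 and Atg5 was at 0.47. The probes of Ctsl had opposite signs, and Atg3 had no value. A link between the motif and these differences was not tested.

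Most members had their lowest level on the metformin array. Of the 34 members with a probe above background everywhere, 23 were lowest on the metformin array, 5 on the combination, 4 on the control and 2 on the diabetic array, while 28.5%, 22.9%, 27.9% and 20.7% of 12702 genes were lowest on those arrays. None of the 34 was highest on the metformin array, where 26.9% of all genes were, but 3 were with quantile normalization, with the authors' value table and with a running median by brightness taken off. Brightness moved with this. Among all genes with a level of 4 or more, 72.6% were lowest on the metformin array, and 9 of 10 members of that brightness were. Between 2 and 4 the share was 32.0% of all genes and 6 of 12 members, between 0 and 2 it was 21.7% and 5 of 8, and below 0 it was 20.8% and 3 of 4. Classes cut at the same values of the mean level of 2 arrays before centring were also compared. For metformin minus diabetic the median of all genes was 0.15 in the dimmest, 0.017 between 0 and 2, -0.0755 between 2 and 4, and -0.13 in the brightest class. The members' medians there were -0.27, -0.38, -0.14 and -0.17, over 5, 9, 9 and 11 members. For combination minus metformin, members had medians of 0.38 below level 0, 0.25 between 0 and 2, 0.039 between 2 and 4 and 0.23 above, against -0.17, -0.018, 0.062 and 0.23 over all genes. The combination minus metformin medians of members rest on 5, 8, 12 and 11 members from the dimmest to the brightest class. The part of brightness in the members' displacement was not tested. With the running median taken off, an alternative chosen after seeing the data, 20 of 34 members were lowest on the metformin array.

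**Figure D3:**
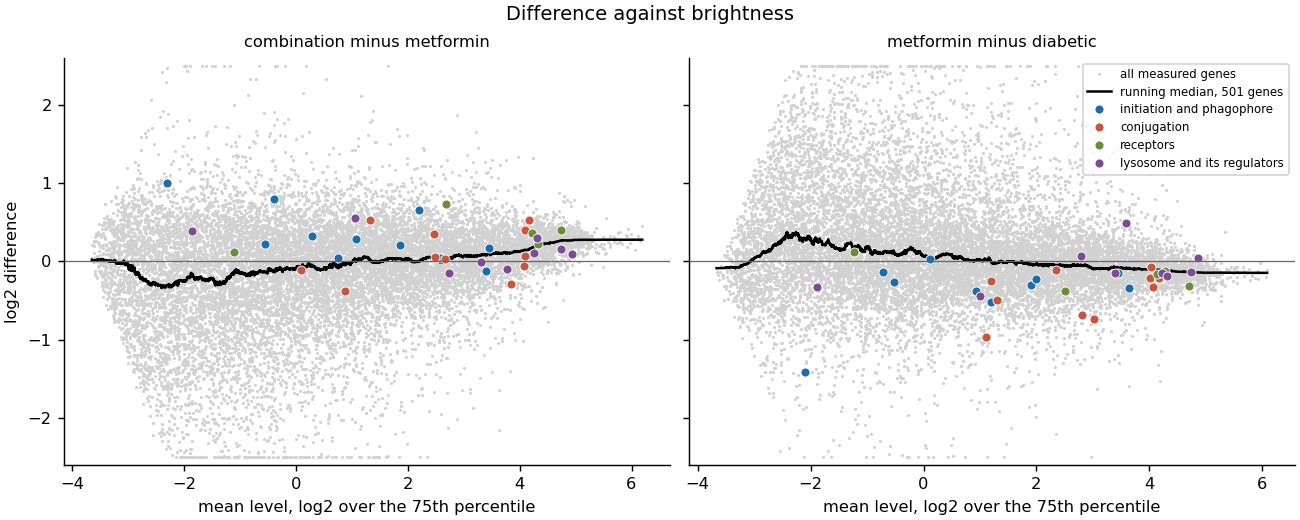
Log2 difference against mean level before centring for all measured genes (grey) and the autophagy and lysosome genes (coloured by role) for combination minus metformin and metformin minus diabetic. The running median of all genes is drawn as a line, and points beyond the axis range are drawn at its edge. The line slopes down for metformin minus diabetic and up for combination minus metformin at bright levels.

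Further genes of the pathway were taken from lists of 25 machinery genes, 13 receptors, 27 genes of mTORC1, TFEB and FoxO control, 38 hydrolases, 19 membrane proteins and 16 V-ATPase subunits. For diabetic minus control the hydrolases were mostly lower, 24 of 33 with a median of -0.12, and Ctsc, a dipeptidyl peptidase that activates granule proteases, was 3.84-fold lower at -1.94. Ctso, another cathepsin gene, was at 0.52. Among machinery genes, Wdr45b, a dim member of the WIPI family, was 3.73-fold lower at -1.90 and Atg16l2 was at -0.92, while Tecpr1 was at 1.48 and Rubcn, a brake on autophagosome maturation, at 0.88. Of the regulators, Mitf, a relative of TFEB, was at 1.59 and Zkscan3, a repressor of autophagy genes, was at 0.93, with Foxo3 at -0.96 and Ddit4, an inhibitor of mTORC1, at -0.61. V-ATPase subunits, which acidify the lysosome, were higher in 11 of 16, led by Atp6v0a1 at 0.84.

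For metformin minus diabetic the medians of these further lists lay between -0.040 and 0.093. Zkscan3 was at -1.05, a 2.06-fold difference, Deptor, an mTOR inhibitor, at -0.88, and Rubcn and the membrane remodeller Tmem41b at -0.65 and -0.70. Ctsk, a cathepsin of osteoclasts and macrophages, was 2.84-fold higher at 1.51, and Tpcn2, a lysosomal cation channel, was at 0.96 but at -0.38 without the background filter. For combination minus diabetic, Rubcn was at -1.13, Mitf at -1.17 and the mitophagy receptor Fundc1 at -1.02. Retreg1, a receptor for the endoplasmic reticulum, was 2.95-fold higher at 1.56, Sesn1, a leucine sensor, was at 1.18 and Ctso at 1.15. V-ATPase subunits were lower in 11 of 15, led by Atp6v0b at -1.0.

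For combination minus metformin, 10 of 12 further receptors were higher, with a median of 0.31 and Retreg1 highest at 1.29, and 17 of 23 regulators were higher, with Fnip1 at 0.74. Rb1cc1, a ULK1 complex subunit, was at 0.73 and Rab7, the GTPase of fusion with the lysosome, at 0.67. Hydrolases ran the other way, 21 of 32 lower with a median of -0.21, among them the lysosomal phospholipase gene Pla2g15 at -0.95 and Ctsh at -0.84. Rragd, a Rag GTPase subunit above background on these arrays alone, was 3.89-fold lower at -1.96.

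**Figure D4:**
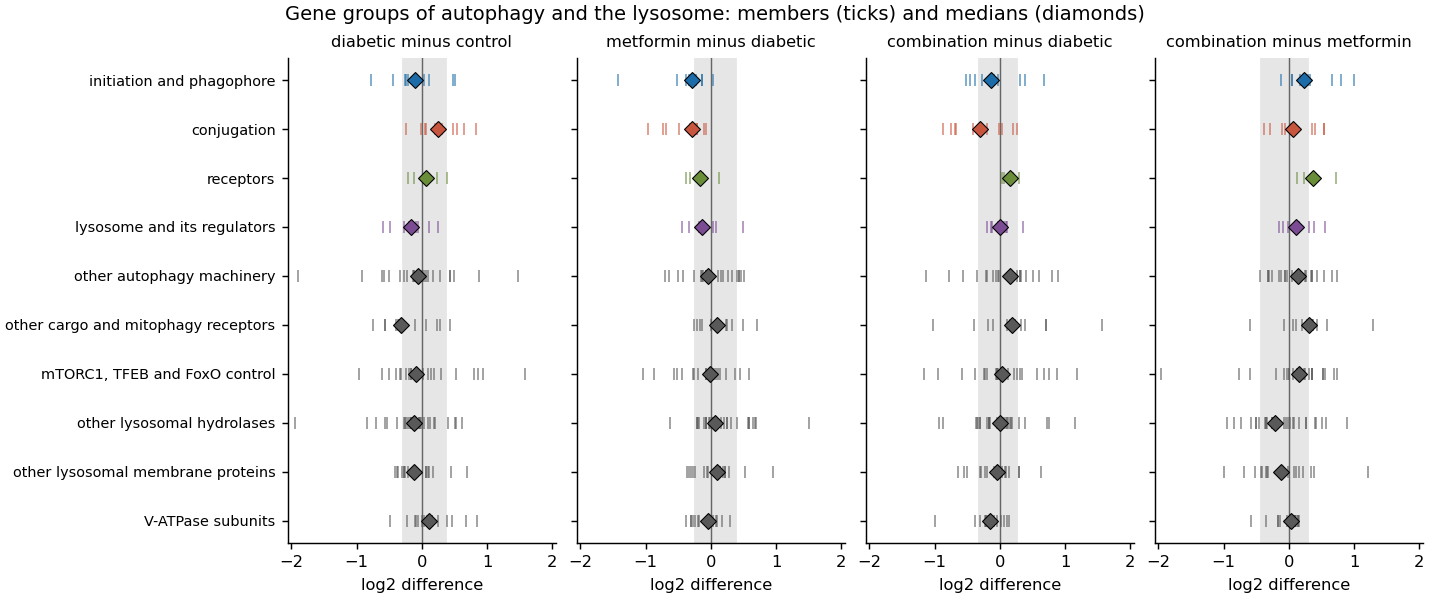
Log2 differences of the 4 member groups (coloured) and of 6 further autophagy and lysosome lists (dark) in 4 comparisons of single arrays; ticks are genes, diamonds are medians, and the grey band holds the middle 50% of all measured genes. For metformin minus diabetic all 4 member medians lie left of 0 while those of the further lists lie close to it.

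Whole liver holds several cell types, and fewer cells of a type cannot be told apart from less RNA per cell. Hepatocyte markers, bright on every array, summed over 8 of 10 genes to 234 on the combination, 190 on the metformin, 227 on the diabetic and 254 on the control array, in linear signal relative to the 75th percentile. Bright genes weigh most in such a sum, and 72.6% of all genes at level 4 or more were lowest on the metformin array. The part of brightness in these sums was not tested. Macrophages are rich in lysosomes, and 12 of 13 Kupffer cell and macrophage markers summed to 91.9 on the combination, 151 on the metformin, 110 on the diabetic and 157 on the control array. The 9 lysosomal members summed to 133, 126, 129 and 151 in the same order, with 126 on the metformin and 129 on the diabetic array close together. The macrophage markers split: metformin minus control was -2.47 for Cd163, -1.61 for Marco and -0.75 for Clec4f, and 0.25 for C1qb, 0.33 for C1qc and 0.24 for Cd68, itself a lysosomal protein. Endothelial and stellate markers (11 of 12 genes) summed to 38.4, 59.3, 28.4 and 49.6, and lymphocyte markers (7 of 10, with Cd79a below background on all arrays) to 2.75, 9.93, 2.10 and 4.50. Erythroid markers (5 of 7) summed to 69.8, 62.5, 54.8 and 82.3, and pancreatic acinar markers (5 of 14), which a liver sample should lack, to 11.6, 32.6, 21.3 and 95.5, a sum in which Cela1 weighs most on the combination array. Over the 12 acinar markers measured, diabetic minus control had a median of -4.46 with 11 past 2-fold lower, and metformin minus control a median of -2.13 with 11 past 2-fold lower. Combination minus control had a median of -4.86 over the 5 measured. These markers were thus far higher on the control array than on the other 3. The part of these cell types in the differences of the autophagy and lysosome genes was not tested.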

How the data were processed

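Total RNA of whole liver was labelled with Cy5 and scanned, 1 array per group, per the labels' protocols. The deposited spot intensities were made with Feature Extraction 11.5.1.1 per the file headers, on a grid built for mm9; version 10.7 stands in the submitters' processing notes. The processed intensity was already corrected for background by that software. The authors' deposited value table holds log2 values that correlated at 0.999 to 1.00 with log2 processed signal; its columns share a median of 7.85 and a 75th percentile of 11.1, and its normalization method is not stated. All 4 arrays lay on 1 slide with 1 scan, so neither separates them.

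Here log2 processed signal was scaled to the 75th percentile over 51780 probes that keep a spot on every array. Control spots and outlier spots (2.18% to 5.35% of 59305) were dropped, and none was saturated. Above background means that 50% or more of a probe's spots carried the software's mark for it. The RefSeq gene table (GRCm38.p6) named 33767 of 56605 probes (59.7%). The members and gene lists were chosen with earlier results of these data known. Full values are given for members past 1.5-fold in any of the 4 main comparisons and for genes that define a step. From the further lists, genes past 2-fold and the 2 highest and 2 lowest with probes of 1 sign were eligible, and a selection of these is printed; some genes of these lists are not reported here. Alternatives were no centring, outliers kept, no background filter, probes above background on all arrays, quantile normalization, the authors' table, normexp (offset 50), the brightest probe, and, chosen after seeing the data, a running median over 501 genes. Normexp, planned on mean signal, was run on median signal, the column used here (limma 3.58.1, R 4.3.3). Other steps used Python 3.11.15, numpy 2.4.6 and pandas 2.3.3. The computation was tested on simulated data.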

Additional observations from a re-analysis of the deposited data

How the results depend on the processing

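The 9 alternatives kept 9 of the 17 member differences past 1.5-fold in the 4 main comparisons past that fold throughout, and the other 8 were lost in at least 1. All alternatives start from the same 4 arrays, and 19 of the 38 members have only 1 probe. The members' median kept its sign for metformin minus diabetic (-0.33 to -0.19), combination minus metformin (0.10 to 0.29), metformin minus control (-0.44 to -0.10) and combination minus control (-0.19 to -0.022). It lay on both sides of 0 for diabetic minus control (-0.13 to 0.045) and combination minus diabetic (-0.12 to 0.091). Without centring the medians were -0.13 for diabetic minus control, -0.33 for metformin minus diabetic, 0.29 for combination minus metformin and -0.44 for metformin minus control. At least 1.5-fold, 1 of 35 members was higher in the first, against 1789 of 13475 genes. In the third 7 of 36 were higher, against 1702 of 14363 genes, and in the fourth 12 of 36 were lower, against 2863 of 13506. With outlier spots kept, 1 of 38 members was higher for diabetic minus control, against 2324 of 14438 genes. For combination minus control 0 of 38 were higher, against 2037 of 14522 genes. Without the background filter, 1 of 35 members was lower for diabetic minus control, against 2258 of 22589 genes. Combination minus diabetic had a median of 0.091 with 0 of 35 higher and 2 lower, against 3117 and 2591 of 22687 genes. Combination minus control had 3 of 37 higher and 1 lower, against 4331 and 2238 of 22843 genes. In the same setting Tpcn2 was at -0.38 for metformin minus diabetic. With probes above background on all arrays, combination minus control had a median of -0.022 and 2 of 34 members higher, against 1760 of 12702 genes. With quantile normalization and with the authors' table alike, diabetic minus control had 1 of 35 members higher and 1 lower. Metformin minus diabetic had 1 of 34 higher and metformin minus control 5 of 36 lower, the last with medians of -0.11 and -0.10. With quantile normalization, 1901 of 13475 genes were higher and 1705 lower in the first comparison. In the second 2332 of 13900 were higher, and in the third 2003 of 13506 were lower. In the authors' table these gene counts were 1875, 1727, 2334 and 2043. Normexp gave 1 of 35 members lower for diabetic minus control, against 1224 of 13475 genes. The brightest probe gave a median of -0.12 for combination minus diabetic. The running median gave 1 of 35 members higher for diabetic minus control, against 1980 of 13475 genes. For metformin minus control it gave a median of -0.14 with 5 of 36 lower, against 1879 of 13506 genes. The cause of these shifts was not tested.

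Over all genes, the lower share of 1.5-fold differences was 52.8% without centring against 40.7% for diabetic minus control and 42.4% against 31.1% for metformin minus diabetic; without the background filter it was 45.4% against 56.9% for combination minus diabetic and 34.1% against 47.1% for combination minus control. For metformin minus control it was 46.3% with quantile normalization and 44.9% with the running median, which gave 59.8% for combination minus metformin. Without the filter, 5208 of 22291 genes were 1.5-fold higher for metformin minus diabetic, against 2598 of 13900 with it. No paired analysis was possible because each group has 1 array. Dim genes such as Atg9a and Tfeb lie nearest to background and are the least certain.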
